A study of Mus musculus with 14 samples.

Results

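Ccnd1, Rrm1, Mcm3, Mcm7, Pcna and Cdt1 are 6 genes that act between the decision of a cell to enter the cell cycle and the copying of its DNA. The rule names them without using a measured value, but they were chosen with earlier results of these data known. Each is represented by 1 of the 1399 transcripts listed in the count tables. Cyclin D1, encoded by Ccnd1, partners with the kinases Cdk4 and Cdk6 in the G1 phase, and these kinases phosphorylate the retinoblastoma protein so that E2F transcription factors can switch on S-phase genes. Cdt1 then loads the MCM helicase, of which Mcm3 and Mcm7 are subunits, onto replication origins. Rrm1 is the large subunit of ribonucleotide reductase, which makes deoxynucleotides, and Pcna is the sliding clamp that holds DNA polymerases on their template. In cultured fibroblasts the transcripts of these genes are known to be more abundant in dividing cells than in resting cells.

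The study sequenced messenger RNA of wild-type mouse embryonic fibroblasts (MEF), connective tissue cells of the embryo, in 7 groups of 2 libraries. In the first set of 6 libraries the cells were untreated (NT), starved of cysteine, or starved of all amino acids. In the second set of 8 libraries they were untreated (NT2), treated with cysteamine, transfected with a short hairpin against CTNS (sh-CTNS), or given that hairpin together with a CTNS plasmid (the rescue). CTNS exports cystine from lysosomes and cysteamine is a drug used to deplete lysosomal cystine. NT and NT2 carry the same treatment label, and they were assigned to their sets by naming: the column headers of the first 6 tables share a prefix that the other 8 lack. Doses, durations and the medium are not given in the labels used here. No group carries a control hairpin or an empty plasmid, so the hairpin's target and transfection itself cannot be told apart. Ctns was not analysed here, so the knockdown was not checked from these counts. The labels do not say whether the replicate libraries were grown as separate cultures, so each p-value here reflects only how far these libraries vary, and that variation may be technical.

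The promoters are shown first because E2F binding is the textbook route by which licensing genes are switched on at the G1/S boundary. Whether these sequences bear on the counts was not tested. RefSeq windows on GRCm38.p6, from 250 bases before to 50 after each start, were found for 5 of the 6 genes; Ccnd1 had no entry. The words TTTCCCGC, TTTCGCGC, TTTGGCGC and TTTGCCGC were searched on both strands as E2F-type sites, and 2.26% of 32851 windows of the same length hold at least 1. Mcm3 (minus strand) holds 2 of them, at chr1:20820275-20820304 and chr1:20820263-20820292, in windows that overlap. Mcm7 (minus strand) holds 2 at one of its 2 RefSeq starts, at chr5:138172030-138172059 and chr5:138171849-138171878, and 0 at the other. Cdt1 (plus strand) holds 1, at chr8:122568035-122568064. Each line gives 30 bases of the gene's strand, 5′ to 3′, with the matching word or its reverse complement in capitals.
Mcm3, 20 to 27 bases after the start: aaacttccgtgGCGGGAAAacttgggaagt
Mcm3, 39 to 46 bases after the start: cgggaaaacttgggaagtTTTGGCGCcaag
Mcm7, 165 to 158 bases before the start: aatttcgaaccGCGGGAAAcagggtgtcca
Mcm7, 17 to 24 bases after the start: gggtgacgacgTTTCGCGCcaatttcggtt
Cdt1, 33 to 40 bases after the start: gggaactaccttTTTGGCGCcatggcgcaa

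The windows of Rrm1 and Pcna held 0 of these words. Rrm1 is printed because it showed the most stable difference among the 6. The 100 bases before its start, chr7:102441595-102441694 on the plus strand, hold 2 copies of CCAAT, in capitals. CCAAT, searched on both strands, is found in 37.4% of all windows of 300 bases. The whole windows hold 2 copies for Rrm1, 3 for Mcm3, 3 and 1 at the starts of Mcm7, 1 for Pcna and 0 for Cdt1.
Rrm1, the 100 bases before the start: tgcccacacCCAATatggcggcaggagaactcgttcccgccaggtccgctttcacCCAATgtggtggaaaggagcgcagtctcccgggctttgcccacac
A match is a description of these letters, not a binding site, and a window without a match says only that these words are not in it.

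The tables held few counts, and their makeup differed between the sets. Listed totals ran from 25697 to 51224 counts in the first set and from 64530 to 165747 in the second, and the summed count of the 6 genes ran from 9 to 73 and from 118 to 569. A class of 341 transcripts had a count in NT, relative to NT2, of more than 2 times the median of that ratio over all transcripts, and none of the 6 genes is in it. This class held 75.3% of counts in NT, 47.6% under cysteine starvation and 80.8% under full amino acid starvation, against 9.49% in NT2, 16.9% with cysteamine, 32.3% with the hairpin and 40.6% in the rescue. Its larger share in NT than in NT2 follows from how it was defined. The 3 transcripts with the most counts over all 14 libraries, not chosen by that ratio, held 45.3% of counts in NT and 3.39% in NT2. The 6 genes together were 0.329% ± 0.0205 of all counts in NT2, 0.343% ± 0.0166 with cysteamine, 0.228% ± 0.000849 with the hairpin and 0.192% ± 0.0122 in the rescue (SD, n = 2 each). As a share of counts outside the class they were 0.363% ± 0.0221, 0.413% ± 0.0240, 0.337% ± 0.00368 and 0.323% ± 0.0298. Levels below are in CPM, the count relative to the library total, after TMM scaling, edgeR's trimmed-mean correction of the totals for differences in makeup (TMM CPM). The part of the class in the results was not tested. Among the fibroblast markers, 9 of 14 listed genes were measured, Col1a1, Col1a2, Fn1 and Vim among them. Immune and endothelial markers were not among the transcripts analysed here (0 of 8 and 0 of 6). Every listed transcript has a count of at least 1 in all 14 libraries, so this absence does not show whether such cells were present.

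**Figure D1:**
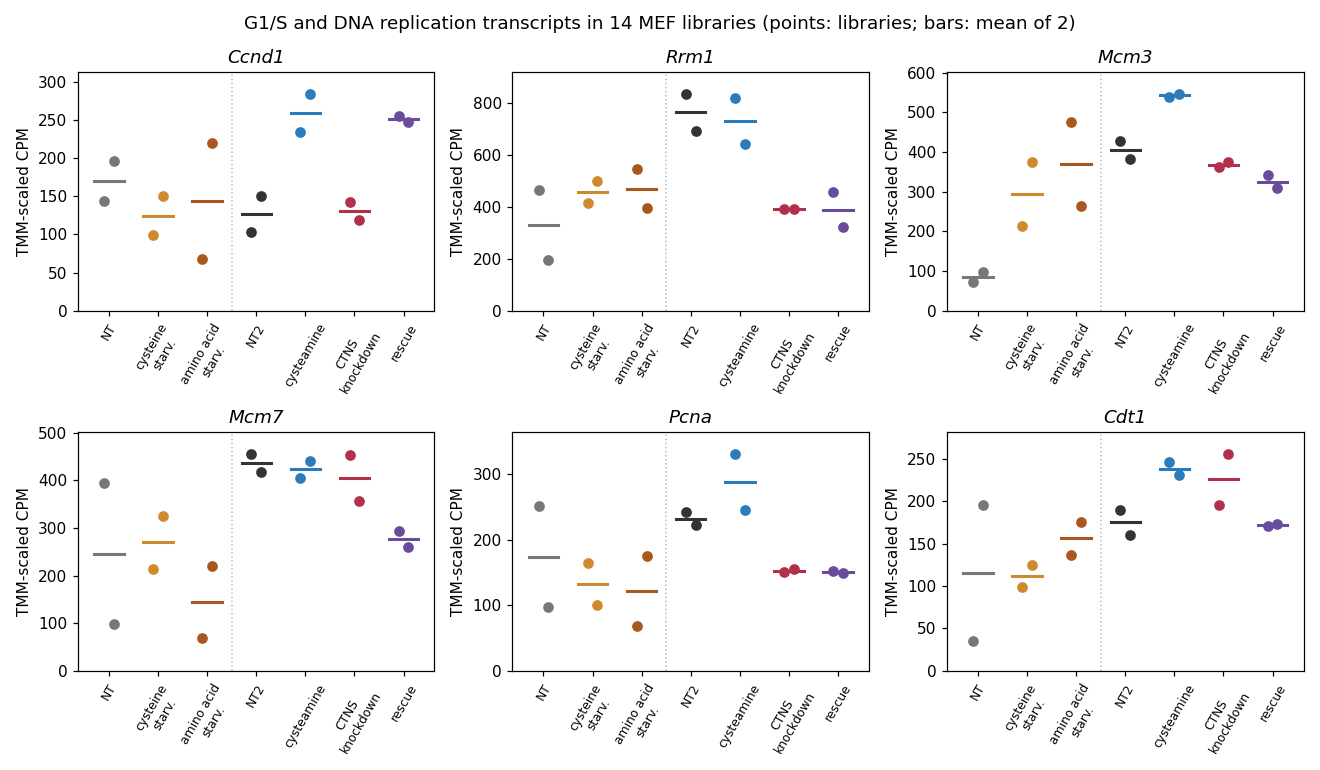
TMM CPM (y axis, linear, from 0) of the 6 genes in each of the 14 libraries (points) with the mean of each group of 2 (bars), the first set to the left and the second to the right. Rrm1 stood at 692 and 835 in NT2 and at 392 and 393 with the hairpin, while Ccnd1 stood at 103 and 150 in NT2 and at 235 and 285 with cysteamine.

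In the second set the calls differed between the 6 genes, but differences between genes were not tested. Ccnd1 was higher with cysteamine and in the rescue, Rrm1 was lower with the hairpin and in the rescue, and the other 4 passed the test in none of the 3 comparisons with NT2. Fewer cells with the transcript and less of it per cell cannot be told apart in bulk libraries. With cysteamine 1 of the 6 genes rose and 0 fell, where 10.5% of all transcripts were called, 5.5% higher and 5% lower. With the hairpin 0 rose and 1 fell, where 30.8% of all transcripts were called, 17.6% higher and 13.2% lower. In the rescue, compared with NT2, 1 rose and 1 fell, where 31.5% of all transcripts were called, 18.7% higher and 12.9% lower. These 3 comparisons share the NT2 libraries. The median log2 fold change of the 6 genes was 0.36 with cysteamine, -0.12 with the hairpin and -0.47 in the rescue, against 0.13, 0.092 and -0.0055 over all transcripts. With library totals in place of TMM, the called transcripts were 32 higher and 61 lower for cysteamine (77 and 70 with TMM) and 199 higher and 259 lower for the rescue (261 and 180 with TMM). That scaling moved the median of all transcripts by -0.15 with cysteamine, -0.18 with the hairpin and -0.33 in the rescue.

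Per kilobase of transcript, the TMM CPM level in NT2 was highest for Rrm1, at 191 ± 25.3 (SD, n = 2), and lowest for Ccnd1, at 33.8 ± 8.91. Pcna stood at 153 ± 8.77, Mcm7 at 147 ± 9.31, Mcm3 at 134 ± 10.5 and Cdt1 at 79.9 ± 9.79. Between Pcna, Mcm7 and Mcm3 neighbours in this order overlapped, while Rrm1 lay above them and Cdt1 and Ccnd1 lay apart below. With cysteamine the level of Ccnd1 per kilobase was 69.4 ± 9.42, still the lowest of the 6. This order rests on the annotated full length of each transcript, of which the libraries sampled short fragments.

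Ccnd1, the G1 cyclin, had 26 and 31 counts in the NT2 libraries, 44 and 64 with cysteamine, 19 and 13 with the hairpin, and 27 and 20 in the rescue. On the TMM CPM scale NT2 stood at 103 and 150, cysteamine at 235 and 285, the hairpin at 143 and 119, and the rescue at 256 and 248. Both cysteamine and both rescue libraries were above all 4 libraries of NT2 and the hairpin, and the NT2 and hairpin libraries overlapped. The share of all transcripts with such a split was not counted. The log2 fold change was 1.05 ± 0.29 (SE) with cysteamine, a 2.07-fold rise (adjusted p = 0.0329), and 1.001 ± 0.32 in the rescue compared with NT2 (adjusted p = 0.0258). The hairpin alone gave 0.071 ± 0.34 (adjusted p = 0.892), with a 95% interval of -0.65 to 0.79. The rescue against the hairpin alone gave 0.93 ± 0.35 (95% interval 0.20 to 1.67), which did not pass (adjusted p = 0.324). In that comparison 0 of the 6 genes and 0.643% of all transcripts were called by edgeR. Ccnd1 was the 1 gene of the 6 with an unadjusted p under 0.05, where 11% of all transcripts had one, and DESeq2 called 0 of the 6.

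The Ccnd1 calls were fragile. Leaving out any 1 of the 4 libraries of cysteamine and NT2 ended the cysteamine call (adjusted p from 0.0912 to 0.311), as did library totals in place of TMM (log2 fold change 0.90, adjusted p = 0.0904). The rescue call was lost without NT2 replicate 1 (adjusted p = 0.221), rescue replicate 1 (0.127) or rescue replicate 2 (0.0795), and with library totals (log2 fold change 0.67, adjusted p = 0.145).

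Of 30 other listed regulators of the G1/S transition, the partner kinases of cyclin D1, Cdk4 and Cdk6, were measured. Cdk4 stood at 466 ± 1.74 TMM CPM in NT2, 475 ± 61.0 with cysteamine, 222 ± 47.7 with the hairpin and 222 ± 34.1 in the rescue (SD, n = 2). It fell with the hairpin (log2 fold change -1.08 ± 0.21, adjusted p = 0.00146) and in the rescue (-1.05 ± 0.22, adjusted p = 0.0022). Both calls held in 7 of 7 other settings and on leaving out each of 4 libraries. With cysteamine the log2 fold change of Cdk4 was 0.021 ± 0.17 (adjusted p = 0.962). Cdk6, the other kinase, gave -0.43 ± 0.26 with the hairpin and 0.45 ± 0.21 with cysteamine, and passed in neither (adjusted p = 0.209 and 0.173). Both cysteamine libraries were above both NT2 libraries for Cdk6, and in the rescue it gave -0.14 ± 0.26 (adjusted p = 0.729). The difference between Ccnd1 and either kinase was not tested.

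The ratio of Ccnd1 to Cdk4 counts within a library needs no scaling between libraries. It was 0.220 and 0.323 in NT2, 0.454 and 0.660 with cysteamine, 0.760 and 0.464 with the hairpin, and 1.04 and 1.25 in the rescue. All 6 libraries of the 3 other groups were above both NT2 libraries, and the 2 rescue libraries were the highest. With the hairpin the log2 fold change was -1.08 for Cdk4 and 0.071 for Ccnd1. Over the sum of Mcm3 and Mcm7 counts, Ccnd1 overlapped between NT2 (0.117 and 0.188) and the hairpin (0.176 and 0.1625). Cysteamine (0.249 and 0.288) and the rescue (0.403 and 0.435) were above both groups. From pooled counts the ratio of Ccnd1 to Cdk4 was 0.266 in NT2 (exact 95% binomial interval 0.195 to 0.358), 0.557 with cysteamine (0.436 to 0.708), 0.604 with the hairpin (0.377 to 0.954) and 1.12 in the rescue (0.722 to 1.74). These intervals come from counts pooled over 2 libraries and leave out the spread between replicates. No molecular identifiers are described, so copies made in amplification may be counted and the intervals may be too narrow.

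Rrm1, the large subunit of ribonucleotide reductase, had the most counts of the 6 genes, with 211 and 143 in NT2, 153 and 144 with cysteamine, 52 and 43 with the hairpin, and 48 and 26 in the rescue. On the TMM CPM scale it stood at 835 and 692 in NT2, 817 and 640.5 with cysteamine, 392 and 393 with the hairpin, and 455 and 322 in the rescue. All 4 libraries that carried the hairpin were below all 4 that did not. How many of all transcripts split this way was not counted. Compared with NT2 alone, 31.6% of all transcripts were lower in both hairpin libraries and 34.4% in both rescue libraries. Rrm1 fell 1.95-fold with the hairpin (log2 fold change -0.96 ± 0.21, adjusted p = 0.00359) and by a like amount in the rescue (-0.95 ± 0.22, adjusted p = 0.00423). Rescue and hairpin differed by 0.0089 ± 0.26 (95% interval -0.54 to 0.55, adjusted p = 0.998). With cysteamine the log2 fold change was -0.078 ± 0.18 (95% interval -0.47 to 0.31, adjusted p = 0.810).

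The Rrm1 differences kept their calls in 7 of 7 other settings, from -1.14 to -0.85 with the hairpin and from -1.29 to -0.75 in the rescue. Without NT2 replicate 1 they just missed the threshold (adjusted p = 0.0580 and 0.0590), and the rescue call was also lost without rescue replicate 2 (adjusted p = 0.0688).

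The ratio of Rrm1 to the sum of Mcm3 and Mcm7 counts within a library was 0.946 and 0.867 in NT2, 0.864 and 0.649 with cysteamine, 0.4815 and 0.5375 with the hairpin, and 0.716 and 0.565 in the rescue. Both hairpin libraries were below all other libraries of the set, and both rescue and both cysteamine libraries were below both NT2 libraries. The nearest cysteamine and NT2 libraries were close, at 0.8644 and 0.8667. The rescue and cysteamine libraries overlapped. In the rescue against the hairpin, Rrm1 differed by 0.0089 ± 0.26 on the log2 scale. The denominator genes gave -0.17 ± 0.24 (Mcm3) and -0.54 ± 0.27 (Mcm7), and none of these differences passed. The higher ratio in the rescue than with the hairpin therefore does not by itself show a rise of Rrm1. The pooled ratios were 0.912 in NT2 (exact 95% binomial interval 0.788 to 1.06), 0.744 with cysteamine (0.638 to 0.867), 0.505 with the hairpin (0.391 to 0.650) and 0.655 in the rescue (0.482 to 0.886). On counting error alone, the interval of the hairpin lay below that of NT2, while those of cysteamine and the rescue overlapped it. The ratio of Rrm1 to Cdk4 did not separate the groups, at 1.79 and 1.49 in NT2, 1.58 and 1.49 with cysteamine, 2.08 and 1.54 with the hairpin, and 1.85 and 1.63 in the rescue.

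**Figure D2:**
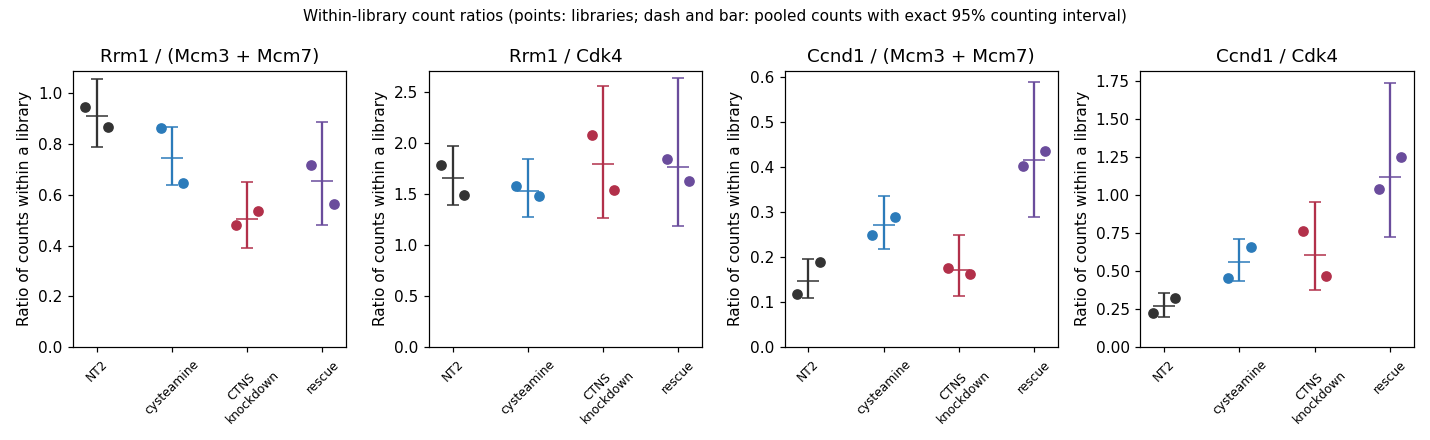
Ratios of counts within single libraries of the second set (points, 2 per group; y axis, ratio with no unit) and pooled ratios with exact 95% binomial intervals. Rrm1 over Mcm3 plus Mcm7 was lowest in the 2 hairpin libraries, at 0.4815 and 0.5375, and Ccnd1 over Cdk4 was highest in the 2 rescue libraries, at 1.04 and 1.25.

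Other genes of nucleotide supply were split. Of 17 listed besides Rrm1, 5 were measured: Cad, which starts pyrimidine synthesis, Umps, which completes uridine monophosphate, Gart and Impdh1 of purine synthesis, and Samhd1, which degrades deoxynucleotides. Cad stood at 594 ± 73.0 TMM CPM in NT2, 810 ± 76.7 with cysteamine, 287 ± 31.1 with the hairpin and 230 ± 63.0 in the rescue (SD, n = 2). It fell with the hairpin (log2 fold change -1.04 ± 0.22, adjusted p = 0.00269) and in the rescue (-1.34 ± 0.24, adjusted p = 0.000702), and both calls held in 7 of 7 other settings and without each of 4 libraries. Umps rose with cysteamine (1.12 ± 0.31, adjusted p = 0.0343), a call lost on leaving out any 1 of the 4 libraries (adjusted p from 0.116 to 0.189) and with library totals. Samhd1 rose in the rescue (1.27 ± 0.21, adjusted p = 0.000326) and belongs to the class of 341 transcripts.

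Mcm3, a helicase subunit, had 108 and 79 counts in NT2, 101 and 123 with cysteamine, 48 and 41 with the hairpin, and 36 and 25 in the rescue. In TMM CPM, NT2 stood at 428 and 382, with 539 and 547 for cysteamine, 362 and 374 with the hairpin, and 341 and 310 in the rescue. The 4 groups did not overlap: cysteamine was highest, then NT2, the hairpin and the rescue. None of its 3 differences from NT2 passed the test, with log2 fold changes of 0.42 ± 0.18 for cysteamine (adjusted p = 0.136), -0.14 ± 0.20 for the hairpin (adjusted p = 0.624) and -0.31 ± 0.22 for the rescue (adjusted p = 0.300). The cysteamine difference passed in 2 of 7 other settings, when the second set was fitted alone (0.38, adjusted p = 0.0461) and without the 341 transcripts (0.41, adjusted p = 0.0386). Groups that do not overlap were common among all transcripts: 39.7% were higher and 26.2% lower with cysteamine in both libraries, with the hairpin 40.2% were higher and 31.6% lower, and in the rescue 34% were higher and 34.4% lower.

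Mcm7, the partner subunit, had 115 and 86 counts in NT2, 76 and 99 with cysteamine, 60 and 39 with the hairpin, and 31 and 21 in the rescue. In TMM CPM, NT2 stood at 455 and 416, with 406 and 440 for cysteamine, 452 and 356 with the hairpin, and 294 and 260 in the rescue. The first 3 groups overlapped, and both rescue libraries were below the rest, which was not counted over all transcripts. The rescue differed from NT2 by -0.65 ± 0.25 (95% interval -1.18 to -0.12), just outside the threshold (adjusted p = 0.0594). It passed with library totals (adjusted p = 0.0167) and when the second set was fitted alone (adjusted p = 0.00772). The hairpin alone and cysteamine gave -0.10 ± 0.22 and -0.043 ± 0.20.

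Cdt1, the loading factor, had 48 and 33 counts in NT2, 46 and 52 with cysteamine, 26 and 28 with the hairpin, and 18 and 14 in the rescue. In TMM CPM, NT2 stood at 190 and 160, with 246 and 231 for cysteamine, 196 and 256 with the hairpin, and 171 and 173 in the rescue. Cysteamine and hairpin libraries were above NT2 and the rescue lay within the NT2 range, but with library totals a hairpin library (264) fell within the NT2 range (248 to 290) and both rescue libraries (205 and 217) fell below it. No difference passed, and the log2 fold changes from NT2 were 0.44 ± 0.27, 0.35 ± 0.29 and -0.030 ± 0.32. Cdt1 activity is known to be controlled by Geminin and by protein degradation, which transcript counts do not show. Of 29 other listed licensing and firing genes, Mcm10 was measured. It was 102 ± 7.13 TMM CPM in NT2 and 192 ± 26.4 with the hairpin (SD, n = 2), a rise of 0.91 ± 0.29 on the log2 scale (adjusted p = 0.0259), and leaving out any 1 of the 4 libraries ended that call (adjusted p from 0.0551 to 0.182), as did library totals (log2 fold change 0.74, adjusted p = 0.118).

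Pcna, the sliding clamp, had 61 and 46 counts in NT2, 62 and 55 with cysteamine, 20 and 17 with the hairpin, and 16 and 12 in the rescue. In TMM CPM, NT2 stood at 242 and 223, with 331 and 245 for cysteamine, 151 and 155 with the hairpin, and 152 and 149 in the rescue. The 4 libraries with the hairpin lay within 149 and 155, below every library without it, a split that was not counted over all transcripts. The log2 fold changes from NT2 were -0.60 ± 0.30 for the hairpin (adjusted p = 0.135) and -0.63 ± 0.31 for the rescue (adjusted p = 0.147), and neither passed. When the second set was fitted alone the hairpin difference passed (log2 fold change -0.69, adjusted p = 0.0465); over 7 other settings its adjusted p ran from 0.0465 to 0.245. Of 42 other listed fork genes 8 were measured, and with the hairpin 1 rose: Pole, the catalytic subunit of polymerase epsilon, at 1.29 ± 0.32 (adjusted p = 0.00712). Pole is in the class of 341 transcripts, and its call was lost without NT2 replicate 2 (adjusted p = 0.0619) or hairpin replicate 2 (adjusted p = 0.0530).

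**Figure D3:**
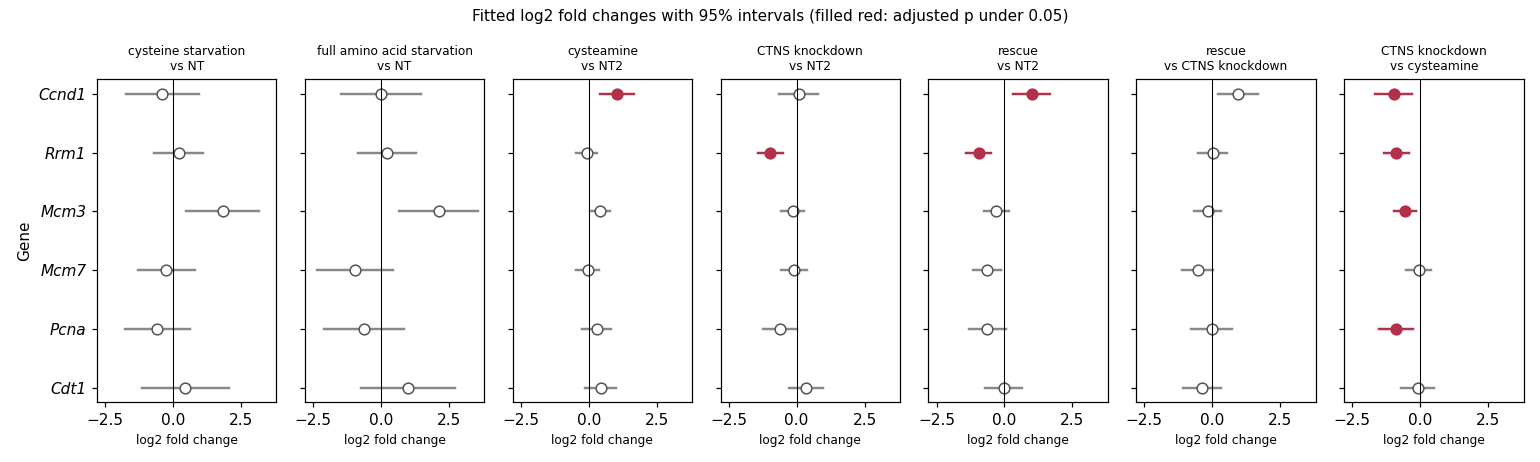
Fitted log2 fold changes (x axis) of the 6 genes (rows) with 95% intervals in 7 comparisons (panels), filled symbols where the adjusted p was under 0.05. Rrm1 was lower by 0.96 with the hairpin and by 0.95 in the rescue, and the intervals of the first set are wider than those of the second.

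Cysteamine is used to deplete lysosomal cystine and the hairpin is directed against the cystine exporter, but cystine levels are not part of these data. The 2 groups were compared directly at the dose and time each was given. All 6 fold changes of hairpin against cysteamine were below 0 (Mcm7 and Cdt1 turned above 0 with the count filter and without the 341 transcripts), and 4 of the 6 genes fell, where 24.7% of all transcripts were called, 10.1% higher and 14.7% lower. Pcna differed by -0.90 ± 0.29 (adjusted p = 0.0362), Ccnd1 by -0.98 ± 0.32 (adjusted p = 0.0368), Rrm1 by -0.89 ± 0.22 (adjusted p = 0.00963) and Mcm3 by -0.56 ± 0.20 (adjusted p = 0.0483). The Mcm3 call held in 2 of 7 other settings, with the replicate block and the second set alone, and was lost with DESeq2 size factors (adjusted p = 0.0530), library totals (0.112), the count filter (0.0928), DESeq2 (0.0921) and without the 341 transcripts (0.0612). The Pcna call held in 5 of 7, and was lost with library totals (0.0716) and DESeq2 (0.0535). Mcm7 (-0.058 ± 0.22) and Cdt1 (-0.086 ± 0.29) did not pass. The median of the 6 was -0.72, against 0.065 over all transcripts. Of the 16 other measured genes of the G1/S and replication lists 4 fell and 0 rose: Cdk4 (-1.10 ± 0.21), Cdk6 (-0.89 ± 0.25), Cad (-1.48 ± 0.22) and Gart (-1.13 ± 0.36). Of these, Cad passed without each of the 4 libraries, Cdk4 failed without hairpin replicate 1 (adjusted p = 0.0522), Cdk6 failed without any 1 of them (adjusted p from 0.0683 to 0.120), and Gart failed without cysteamine replicate 1 (0.135), cysteamine replicate 2 (0.0945) or hairpin replicate 2 (0.247). Leaving out 1 library left 0 or 1 of the 4 member calls: Rrm1 passed without cysteamine replicate 2 (adjusted p = 0.0388), and no member passed without cysteamine replicate 1, hairpin replicate 1 or hairpin replicate 2. With library totals 124 transcripts were higher and 121 lower, against 141 and 205 with TMM, and Rrm1 and Ccnd1 were the members that passed.

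Levels of fibroblast markers and of markers of other tissues also differed between these groups. The summed level of the 9 fibroblast markers was 34610 to 37600 TMM CPM in NT2, 21720 to 22450 with cysteamine, 11220 to 11340 with the hairpin and 19110 to 19540 in the rescue. Fn1, Col1a1 and Col1a2 made up most of this sum in NT2, and not all of the 9 followed it. With cysteamine 2 of the 9 fell (Col1a2 and Col3a1) and 0 rose, where 5.5% of all transcripts were called higher and 5% lower. Vim gave 0.76 ± 0.26 with cysteamine, with both libraries above NT2 (adjusted p = 0.0779), and S100a4 gave 0.32 ± 0.37. With the hairpin 6 fell and 0 rose, where 17.6% of all transcripts were called higher and 13.2% lower. In the rescue, compared with NT2, 4 fell and 1 rose, where 18.7% of all transcripts were called higher and 12.9% lower. The 1 that rose was Postn, at 1.54 ± 0.42 (adjusted p = 0.0108), which is in the class of 341 transcripts. Ctrb1, a pancreatic enzyme precursor and the 1 measured gene of 8 on that list, was 11.9 to 14.5 in NT2, 53.4 to 71.2 with cysteamine, 249 to 347 with the hairpin and 409 to 426.5 in the rescue. Ttn, the 1 of 8 muscle genes, ran from 99.0 to 194, 218 to 245.5, 411 to 459.5 and 569 to 743 in the same order. Cdh1, the 1 of 8 epithelial genes, was 3.96 to 24.2 in NT2, 8.90 to 26.7 with cysteamine, 54.8 to 90.4 with the hairpin and 24.8 to 56.9 in the rescue. Compared with NT2, Ctrb1 and Ttn rose with the hairpin and in the rescue, and Cdh1 rose with the hairpin but did not pass in the rescue (adjusted p = 0.182). All 3 belong to the class of 341 transcripts. In the untreated NT libraries of the first set they ran from 215 to 980 (Ctrb1), 686 to 716 (Ttn) and 143 to 294 (Cdh1). With cysteamine none of the 3 passed (adjusted p = 0.0695 for Ctrb1, 0.158 for Ttn and 0.824 for Cdh1). Their part in the results was not tested. With the 341 transcripts of the class set aside, the log2 fold change of Rrm1 was -0.85 with the hairpin (adjusted p = 0.00046) and -0.75 in the rescue (adjusted p = 0.00434).

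The other genes of the 4 lists give the wider setting. Of 145 listed besides the 6, 16 were measured. With cysteamine all 16 fold changes were above 0 with TMM (12 of 16 with library totals), with a median of 0.36, and 1 passed (Umps). Over all transcripts 59.3% were above 0 (48.1% with library totals) and 10.5% were called. With the hairpin 2 rose (Mcm10 and Pole) and 2 fell (Cdk4 and Cad), with a median of 0.28; over all transcripts 30.8% were called, 17.6% higher and 13.2% lower. In the rescue, compared with NT2, 2 rose (Pole and Samhd1) and 2 fell (Cdk4 and Cad), with a median of 0.16 that turned to -0.17 with library totals; over all transcripts 31.5% were called, 18.7% higher and 12.9% lower. With 4 of 16 called in each, neither share was above that of all transcripts. The Pole call was lost in the rescue without NT2 replicate 2 (adjusted p = 0.0939) or rescue replicate 2 (0.118), and with library totals (0.0571). The rescue against the hairpin alone gave 0 calls of the 16 in either direction by edgeR or DESeq2, and 3 of the 16 had an unadjusted p under 0.05. Over all transcripts 0.643% were called by edgeR and 11% had an unadjusted p under 0.05.

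**Figure D4:**
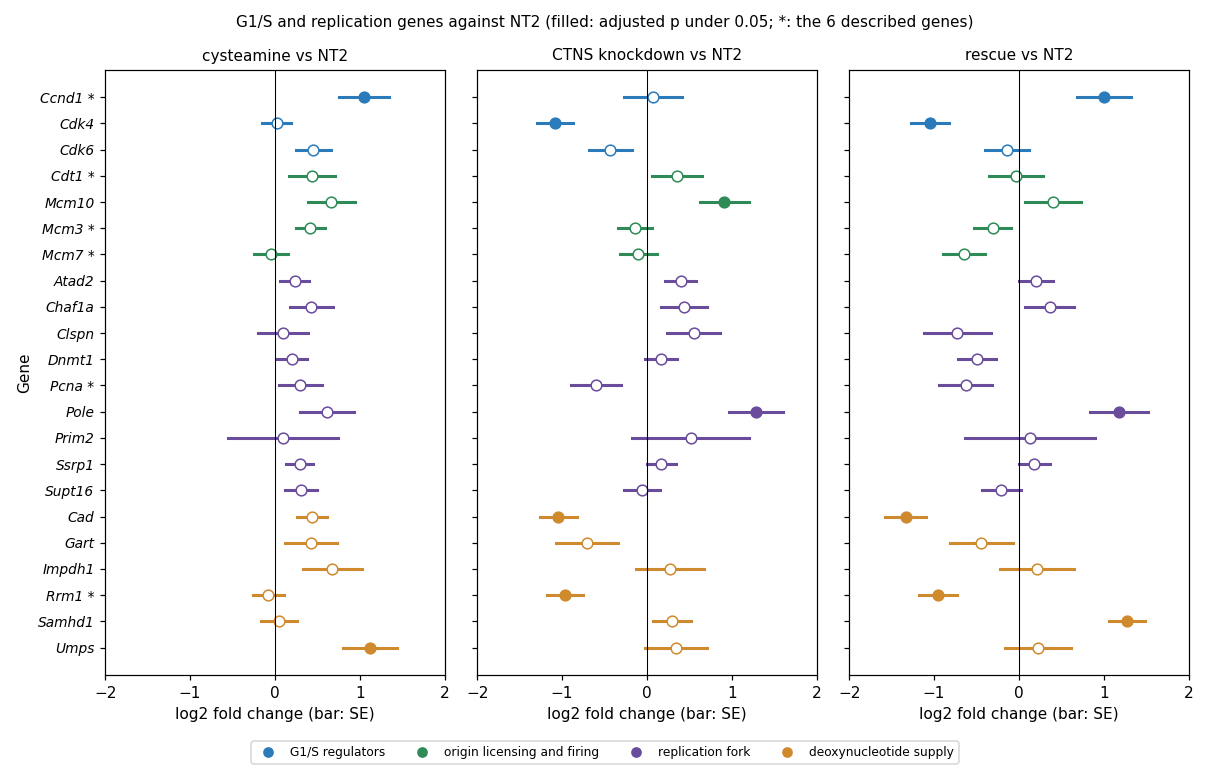
Log2 fold changes (x axis, bars SE) of measured genes of the G1/S, licensing, fork and nucleotide lists and of the 6 genes, each group of the second set against NT2, filled where the adjusted p was under 0.05. Cdk4 and Cad lie at or below -1.04 with the hairpin and in the rescue, while all 16 other genes lie above 0 with cysteamine on this scaling (12 of 16 with library totals).

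In the first set none of the 6 genes passed in the 3 comparisons by edgeR with TMM, although Mcm7 passed between the starvations with library totals (1.73, adjusted p = 0.0431). The 2 NT libraries held 38 and 9 counts of the 6 genes together, the cysteine-starved libraries 73 and 63, and the fully starved libraries 20 and 33. Replicates also differed more here, with a chi-square per degree of freedom of 4.22 in NT, 4.55 under cysteine starvation and 2.54 under full starvation, against 1.55 to 1.95 in the second set. With cysteine starvation 0 of the 6 genes and 0% of all transcripts were called by edgeR, 230 transcripts (16.4%) had an unadjusted p under 0.05, and DESeq2 called 60. With full amino acid starvation 0 of the 6 and 0% of all transcripts were called, 109 (7.79%) had an unadjusted p under 0.05, and DESeq2 called 0. Between the 2 starvations 0 of the 6 were called, where 15% of all transcripts were, 2.57% higher and 12.4% lower under cysteine starvation. That split turned with library totals, to 474 higher and 74 lower. At an unadjusted p under 0.05, 1 of the 6 genes (Mcm3) was higher in each comparison with NT and 0 differed between the starvations, and DESeq2 called 0 of the 6 in all 3. Between the starvations 28.8% of all transcripts had an unadjusted p under 0.05.

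Mcm3 had the largest difference of the 6 genes in this set, on 2 and 1 counts in NT, 13 and 15 under cysteine starvation, and 7 and 6 under full starvation. The TMM CPM levels were 71.6 and 98.0 in NT, 215 and 376 under cysteine starvation, and 476 and 264 under full starvation. All 4 starved libraries were above both NT libraries, and the starved groups overlapped. The ratio to NT of the counts pooled over each group, divided by the ratio of the summed TMM-scaled library sizes, was 3.54 under cysteine starvation (exact 95% interval 1.09 to 18.2) and 4.41 under full starvation (1.21 to 24.1). Each rests on 3 NT counts, and the intervals cover counting error only, not the spread between replicates. Neither passed over all transcripts (adjusted p = 0.163 and 0.388). Among all transcripts 24.5% were higher in both cysteine-starved libraries than in NT, and 16.3% in both fully starved libraries.

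The other 5 genes overlapped between NT and each starvation. Rrm1 had 13 and 2 counts in NT, 25 and 20 under cysteine starvation and 8 and 9 under full starvation, with log2 fold changes of 0.21 ± 0.43 and 0.23 ± 0.50. Ccnd1 had 4 and 2, 6 and 6, and 1 and 5 counts, with log2 fold changes of -0.39 ± 0.64 and 0.0040 ± 0.69. Mcm7 had 11 and 1, 13 and 13, and 1 and 5 counts, and Pcna 7 and 1, 10 and 4, and 1 and 4, and for both genes the TMM CPM levels of the NT libraries spanned those under cysteine starvation. Cdt1 had 1 and 2 counts in NT, 6 and 5 under cysteine starvation and 2 and 4 under full starvation, with mean TMM CPM levels of 116, 112 and 156. Its fitted log2 fold changes were 0.45 ± 0.76 and 0.99 ± 0.82, the first of them opposite in sign to the difference of the means. The 95% interval of the Rrm1 log2 fold change ran from -0.70 to 1.12 under cysteine starvation and from -0.84 to 1.29 under full starvation, and those of the other 4 genes also held 0. Cdk4, with 5 counts in NT, 36 under cysteine starvation and 17 under full starvation, gave log2 fold changes of 1.45 ± 0.50 and 1.78 ± 0.55 that did not pass (adjusted p = 0.182 and 0.388). Of the 16 other genes of the lists 0 passed in either starvation against NT with edgeR, 2 and 1 had an unadjusted p under 0.05, and DESeq2 called 1 and 0. Under cysteine starvation compared with full starvation 2 of the 16 fell, Prim2 of the primase (-2.50 ± 0.64, adjusted p = 0.0158) and Samhd1 (-1.47 ± 0.31, adjusted p = 0.00625), and both are in the class of 341 transcripts. The Prim2 call was lost without cysteine-starved replicate 1 (adjusted p = 0.164) or fully starved replicate 2 (0.203), and the Samhd1 call without cysteine-starved replicate 1 (0.107). With library totals the Samhd1 difference was -0.42 (adjusted p = 0.410, against 0.00353 to 0.410 over its 6 alternatives).

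Across the 8 libraries of the second set all pairs among the 5 genes other than Ccnd1 had r above 0, while the pairs of Ccnd1 lay on both sides of 0. On log2 CPM, Pearson's r was 0.918 between Rrm1 and Pcna, 0.879 between Mcm3 and Pcna, and 0.764 between Rrm1 and Mcm3. The remaining pairs among the 5 ran from 0.132 (Rrm1 and Cdt1) to 0.657 (Rrm1 and Mcm7). Ccnd1 had r from -0.443 to 0.195 with the other 5, a range that overlapped the low end of the pairs among the 5. The median over all pairs of 1121 transcripts with a mean count of at least 20 was 0.0066. The 8 points are 4 groups of 2 and share their library scaling, so these values are descriptions. Among the other 1120 transcripts, the 3 most like Rrm1 were Fscn1 (0.979), Tmpo (0.963) and Cdk4 (0.962). Those most like Pcna were Cct6a (0.992), S100a6 (0.970) and Actb (0.966), and Nme1 (0.990) and Rps25 (0.980) were among those most like Mcm3. Mcm7 was most like mt-Nd2 (0.965), Ddx5 (0.942) and Aamp (0.934), Cdt1 most like Wwc1 (0.902), Ahnak (0.877) and Hsp90aa1 (0.871), and Ccnd1 most like mt-Nd5 (0.925), Ankrd17 (0.896) and Ltbp1 (0.891).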

How the data were processed

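The authors deposited 1 file per library with raw counts for Ensembl transcripts, not normalized; the smallest value is 1, so falls to 0 cannot be seen and totals are not depths. Messenger RNA was gel-selected as short fragments, tailed, ligated and amplified, per the labels' protocols. Per the submitters' processing notes, STAR 2.7.10a, Bowtie 1.2.3, cutadapt 2.8, bcl2fastq 2.20.0.422 and the build GRCm39 were used. How reads were counted, with which strand setting and gene models, is not given in the sources used here. Symbols came from GENCODE mouse release 21, and no coordinates of the counts were used.

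edgeR 4.0.16 in R 4.3.3 fitted 7 group means to all 14 libraries (7 residual degrees of freedom) with TMM scaling and the quasi-likelihood test, two-sided, with Benjamini-Hochberg adjustment over 1399 transcripts and a threshold of 0.05. 8 comparisons were tested. Standard errors are the log2 fold change divided by the square root of F. Correlations used log2 CPM with a prior count of 2. Replicates differed beyond sampling noise (chi-square per degree of freedom 1.55 to 4.55). Alternatives were other scalings, a count filter, DESeq2 1.42.0, a replicate block, separate sets, and leaving out the class or each library. The scripts were tested on simulated data. Named genes were the 6 members, listed pathway genes past the threshold or with the smallest p, and the 3 most alike transcripts, of which 1 is not reported here. The members and lists were chosen with earlier results of these data known. A list of cell cycle inhibitors and p53 targets was not analysed here.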

Additional observations from a re-analysis of the deposited data

How the results depend on the processing

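The first set held 9 to 73 counts of the 6 genes per library and the second 118 to 569, and each group of both sets had 2 libraries. Repeats of the called fold changes of the 6 genes kept the call 44 times and lost it 9 times under other settings, kept it 7 times and lost it 25 times on leaving out a library, and turned direction 0 times. With DESeq2 size factors 2 transcripts were called for cysteine starvation against NT. With library totals the transcripts called were 31 for that comparison, 548 between the starvations, 93 for cysteamine and 2 for rescue against hairpin; the members called were 1 between the starvations (Mcm7, 1.73, adjusted p = 0.0431), 0 for cysteamine and 2 for hairpin against cysteamine. With a mean count of at least 20, which leaves 897 transcripts and drops Ccnd1, 117 transcripts were called between the starvations, and 0, 1 and 2 members for cysteamine, rescue against NT2 and hairpin against cysteamine. DESeq2 called 60 transcripts for cysteine starvation, 14 for rescue against hairpin, and 2 members for hairpin against cysteamine. The replicate numbers are not said to mark a shared culture, and same-numbered libraries deviated together with r from -0.214 to 0.287. With the number as a replicate block 80 transcripts were called for cysteine starvation against NT and 269 for cysteamine; Mcm7 passed in rescue against NT2 (-0.65, adjusted p = 0.0471) and no member call was lost. With each set fitted alone, 87 transcripts were called between the starvations, 375 for cysteamine, 58 for rescue against hairpin and 529 for hairpin against cysteamine, with 2 members each for cysteamine (Mcm3 added) and for the hairpin against NT2 (Pcna added). Without the 341 transcripts, 18 were called between the starvations, 327 for cysteamine, 35 for rescue against hairpin and 287 for rescue against NT2, with 2 members for cysteamine (Mcm3 added). The cause of these shifts was not tested.

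Fold changes that turned direction were all of differences that did not pass. For Ccnd1 under full starvation against NT they were -0.014 with DESeq2 size factors, -0.35 with library totals, -0.0079 with DESeq2, -0.24 with the replicate block and -0.093 with the set alone. For Cdt1 in rescue against NT2 they were 0.017 with DESeq2 size factors, 0.086 with the count filter, 0.015 with DESeq2 and 0.16 without the 341. With library totals cysteine starvation against NT gave 0.28 for Ccnd1, 0.41 for Mcm7 and 0.098 for Pcna, and full starvation gave -0.14 for Rrm1. The same scaling gave 0.63 for Ccnd1, 1.02 for Rrm1, 0.72 for Mcm3 and 0.50 for Cdt1 between the starvations, -0.11 for Ccnd1 with the hairpin, and -0.15 for Rrm1 in rescue against hairpin. It moved the median of all transcripts by 0.68, -0.36 and 1.04 in the comparisons of the first set. Pcna between the starvations was -0.18 with the count filter, -0.029 with the replicate block and -0.25 without the 341. Hairpin against cysteamine gave 0.048 for Mcm7 and 0.016 for Cdt1 with the count filter, and 0.073 and 0.039 without the 341. Rrm1 was -0.00030 in rescue against hairpin with DESeq2, 0.076 between the starvations with the set alone, and -0.039 for cysteine starvation without the 341. Ccnd1 with the hairpin was -0.0082 with the set alone, and without the 341 Mcm7 with the hairpin was 0.023 and Pcna in rescue against hairpin 0.053.

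Leaving out each library in turn gave these ranges of transcripts called: 0 to 112 for cysteine starvation against NT, 0 to 20 for full starvation against NT, 18 to 193 for the starvations compared, 15 to 32 for cysteamine, and 191 to 237 for the hairpin, 1 to 4 for rescue against hairpin, 257 to 287 for rescue against NT2 and 67 to 127 for hairpin against cysteamine. Members called ranged from 0 to 1 for the hairpin, from 0 to 2 for rescue against NT2, from 0 to 1 for hairpin against cysteamine, and were 0 throughout for the other comparisons, cysteamine included. Log2 fold changes that turned direction on leaving out a library ranged as follows. For cysteine starvation against NT the ranges were Rrm1 -0.053 to 1.19, Mcm7 -0.60 to 1.40, Pcna -1.04 to 0.49 and Cdt1 -0.83 to 1.59. For full starvation against NT the ranges were Ccnd1 -1.20 to 0.47, Rrm1 -0.033 to 1.21, Mcm7 -2.18 to 0.70, Pcna -1.59 to 0.44 and Cdt1 -0.29 to 2.12. For the starvations compared the ranges were Ccnd1 -0.87 to 0.81, Rrm1 -0.28 to 0.18, Mcm3 -0.76 to 0.11 and Pcna -0.40 to 1.01. For cysteamine the ranges were Rrm1 -0.26 to 0.093 and Mcm7 -0.11 to 0.025. For the hairpin the ranges were Ccnd1 -0.19 to 0.35 and Mcm7 -0.29 to 0.049. For rescue against hairpin the range was Rrm1 -0.27 to 0.21. For rescue against NT2 the range was Cdt1 -0.14 to 0.10. For hairpin against cysteamine the ranges were Mcm7 -0.25 to 0.093 and Cdt1 -0.28 to 0.10.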

Other observations

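Genes of G2 and mitosis, described for contrast with the S-phase genes, were measured for 19 of 53 listed. With cysteamine 0 of the 19 were called by edgeR or DESeq2, 2 had an unadjusted p under 0.05 (Ckap5 and Cenpf), and the median log2 fold change was 0.091. Over all transcripts 10.5% were called by edgeR and 27.7% had an unadjusted p under 0.05. Mki67, a marker of cycling cells, stood at 673 ± 6.09 TMM CPM in NT2, 607.5 ± 21.4 with cysteamine, 763 ± 109 with the hairpin and 709 ± 118 in the rescue (SD, n = 2). Its log2 fold changes of -0.15 ± 0.20 with cysteamine and 0.17 ± 0.21 with the hairpin did not pass. Top2a, which untangles sister chromatids, gave 0.15 ± 0.22 and 0.079 ± 0.23.

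With the hairpin 1 of the 19 rose and 2 fell, where 17.6% of all transcripts were called higher and 13.2% lower. Cenpf, a kinetochore protein, rose by 0.82 ± 0.21 on the log2 scale (adjusted p = 0.00805), a call lost without NT2 replicate 1 (adjusted p = 0.101) or hairpin replicate 1 (0.0874), and with library totals (0.0816). Ect2 and Racgap1, which act together in cytokinesis, were lower at -1.56 ± 0.33 (adjusted p = 0.00259) and -0.85 ± 0.25 (adjusted p = 0.0186). The Ect2 call held in 7 of 7 other settings and without each of 4 libraries, and the Racgap1 call was lost without NT2 replicate 1 (adjusted p = 0.0572), NT2 replicate 2 (0.146) or hairpin replicate 2 (0.161), and with DESeq2 (0.0517). In the rescue, compared with NT2, Ect2, Racgap1 and Aurkb were lower at -1.32 ± 0.34, -1.23 ± 0.28 and -1.26 ± 0.44, and 0 of the 19 rose, where 18.7% of all transcripts were called higher and 12.9% lower. In both comparisons the share of the 19 that was called was below the share of all transcripts. The Aurkb call was lost without any 1 of the 4 libraries (adjusted p from 0.0732 to 0.276), the Ect2 call without rescue replicate 1 (0.0980) or NT2 replicate 2 (0.0759), and the Racgap1 call without rescue replicate 1 (0.0535).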
